A study of Mus musculus with 12 samples.

Results

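Fibroblast growth factor (FGF) genes, FGF receptor genes and the Sprouty feedback inhibitors were followed in mouse uterine cells treated with estradiol (E2). Members were the probe sets whose single gene symbol was Fgf10, Fgf7, Fgf2, Fgf9, Fgf12, Fgfr1, Fgfr2, Spry1, Spry2 or Spry4. All 10 genes were found, each with 1 probe set, among 19938 genes that had a single-symbol probe set. The cells were primary co-cultures from uteri of CD-1 mice on day 4 of pseudopregnancy, in which sheets of epithelium grew on inserts coated with matrigel above stroma grown on cover slips. The 4 groups of 3 arrays were epithelial E2 (10 nM for 2 days), epithelial vehicle (ethanol), stromal E2 (10 nM for 2 days) and stromal vehicle (ethanol). All groups had spent a night in medium with charcoal-stripped serum before treatment, and RNA was taken from each layer separately. The labels give no age, and they do not say whether replicates stem from different mice or wells, so a p-value covers no more than the spread among these samples.

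FGFs are secreted proteins that bind receptor tyrosine kinases together with heparan sulfate and start, among others, the Ras and ERK kinase cascade. Fgf10 and Fgf7 are classical mesenchymal ligands that act on a splice form of the Fgfr2 protein found on epithelia, while Fgf9 in several developing organs is made by epithelium and acts on mesenchyme. Sprouty proteins are intracellular inhibitors of the cascade, and their genes are often switched on by it, so they act as feedback. In the uterus, estrogen is known to act on epithelial growth in part through factors made by the stroma.

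Values are log2 signals from RMA, a method that corrects, normalizes and summarises the probes of an array, and each gene had 1 value per array, so splice forms were not told apart. Levels of different genes were not compared, because probe sets differ in brightness. A log2 difference is the first group minus the second. It is followed by ± its standard error, estimated in limma from 3 arrays in each group, while SDs are named as such. P-values were adjusted after Benjamini and Hochberg for all 23410 probe sets with a symbol, and 0.05 was the threshold.

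The layer labels were checked against defining markers. The epithelial cadherin Cdh1 measured 10.43, 10.87 and 10.93 in epithelial E2 arrays, 11.86, 12.24 and 10.75 in epithelial vehicle arrays, 6.74, 7.09 and 6.77 in stromal E2 arrays and 7.06, 7.19 and 6.62 in stromal vehicle arrays. The epithelial adhesion gene Epcam lay between 9.23 and 11.20 in the 6 epithelial arrays and between 5.21 and 6.04 in the 6 stromal ones. Stromal genes were not restricted to the stromal layer. Pdgfra, the platelet-derived growth factor receptor of mesenchymal cells, measured 11.77, 11.94 and 11.71 in epithelial E2 arrays and 10.46, 9.82 and 11.76 in epithelial vehicle arrays, against 11.95, 11.96 and 11.89 in stromal E2 arrays and 11.62, 12.27 and 11.87 in stromal vehicle arrays. The homeobox gene Hoxa11 was between 7.28 and 8.68 in the epithelial arrays and between 9.91 and 10.02 in the stromal ones.

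The mean of 20 stromal markers ranged from 10.67 to 10.70 in epithelial E2 arrays, from 9.86 to 10.80 in epithelial vehicle arrays, from 10.84 to 11.06 in stromal E2 arrays and from 11.03 to 11.19 in stromal vehicle arrays. The mean of 18 epithelial markers ranged from 9.15 to 9.44, 9.22 to 10.75, 6.78 to 6.91 and 6.55 to 6.73 in the same order of groups. Within the epithelial vehicle group, replicate 3 had the highest stromal mean (10.80) and the lowest epithelial mean (9.22), and replicate 2 the lowest stromal mean (9.86) and the highest epithelial mean (10.75). Mesothelial markers (6 genes) ranged from 8.96 to 9.32 in epithelial E2 arrays and from 9.20 to 9.78 in epithelial vehicle arrays, against 7.10 to 7.24 in stromal E2 arrays and 7.01 to 7.21 in stromal vehicle arrays. Leukocyte markers (16 genes) ranged from 8.21 to 8.93, 8.11 to 8.33, 8.91 to 9.13 and 9.22 to 9.32 in the order of groups above, smooth muscle markers (11 genes) from 9.48 to 9.70, 9.56 to 9.81, 10.68 to 10.72 and 10.46 to 10.56, and endothelial markers (12 genes) from 7.74 to 7.92, 7.83 to 7.90, 8.10 to 8.14 and 8.04 to 8.30. Members of some lists went both ways. Epithelial minus stromal differences under E2 ran from -2.74 to 3.27 for endothelial, from -1.46 to 1.96 for leukocyte and from -1.53 to 2.15 for stromal markers. Within the epithelial E2 group the leukocyte mean was 8.87 in replicate 1, 8.93 in replicate 2 and 8.21 in replicate 3, and its part in the gene values was not tested. With E2 in the epithelial layer, 17 of 18 epithelial markers were lower and 1 higher (median difference -0.71). Of 20 stromal markers 14 were higher and 6 lower (median 0.17). In each list 1 marker passed the threshold, where 2.9% of all probe sets did. The part of these marker differences in the E2 differences of genes in the epithelial layer was not tested. In whole-layer RNA, fewer cells of a type and less RNA per cell cannot be told apart. The progesterone receptor gene Pgr, a classical estrogen target, was 2.98 ± 0.24 higher in epithelial E2 than in epithelial vehicle arrays (adjusted p = 0.000138 by limma). Between stromal E2 and stromal vehicle arrays its difference was 0.92 ± 0.24, which did not pass (adjusted p = 0.0700 by limma, from 9.78e-05 to 0.266 over all alternatives, 8 of which passed).

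**Figure D1:**
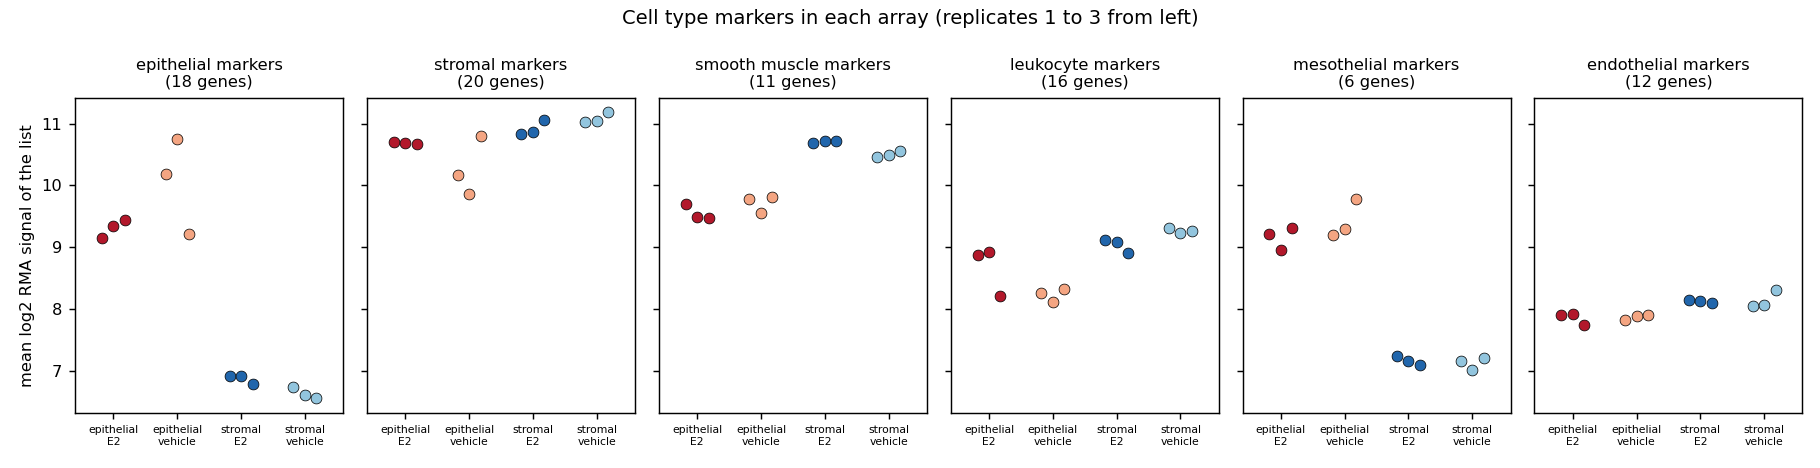
Mean log2 RMA signal of 6 lists of cell type markers (y axis) in each of the 12 arrays, with the groups along the x axis and the 3 replicates as points from left to right. Epithelial markers lie between 9.15 and 10.75 in the epithelial layer and between 6.55 and 6.91 in the stromal layer, while stromal markers lie between 9.86 and 11.19 in all groups.

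**Figure D2:**
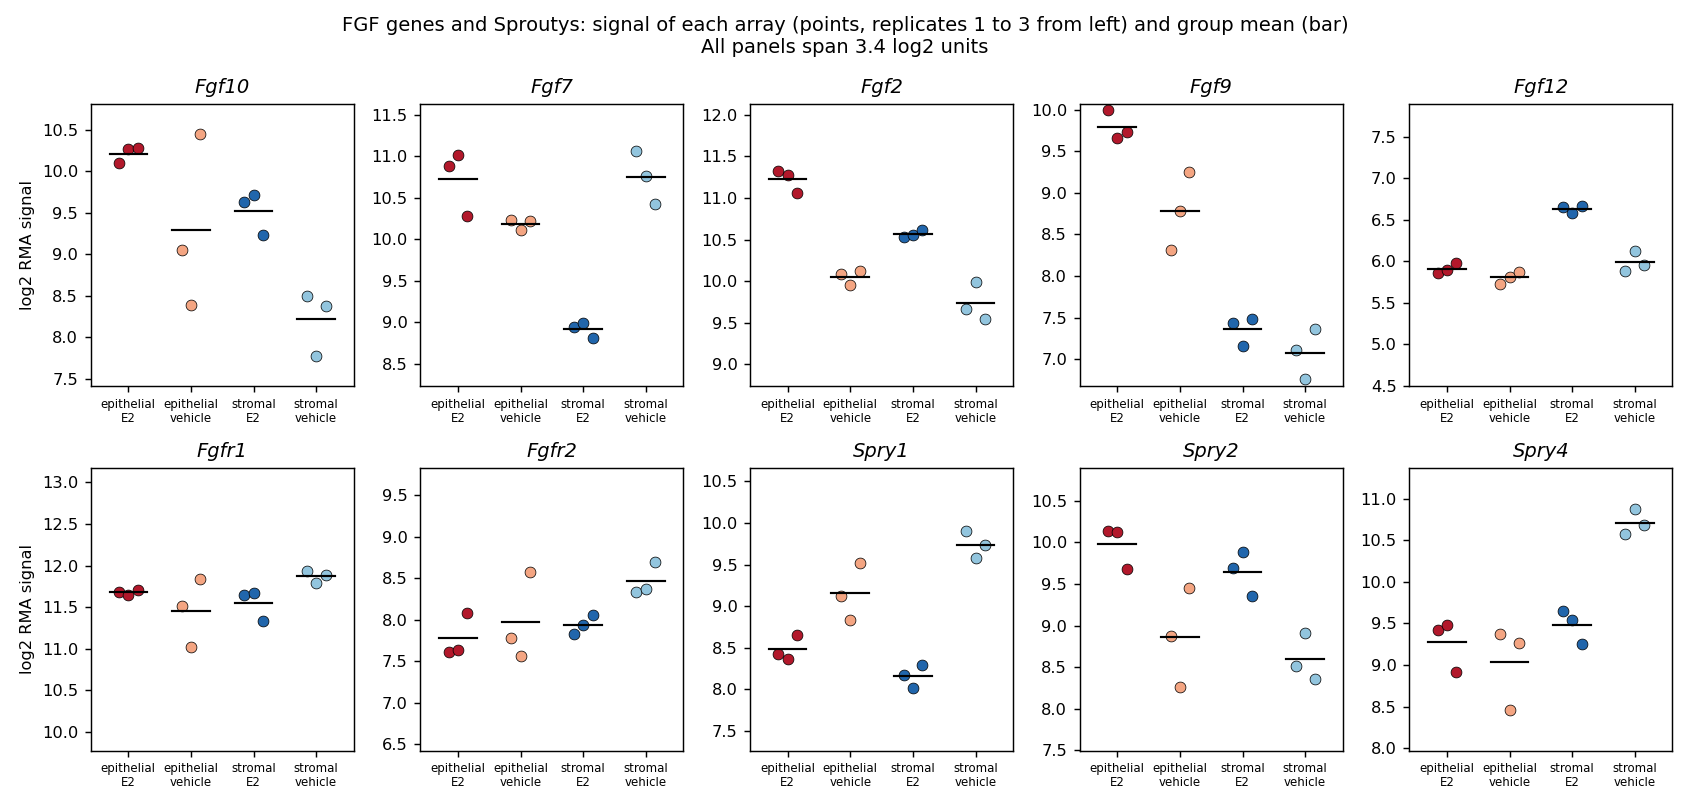
Log2 RMA signal (y axis, 3.4 log2 units in each panel) of the 10 genes in each array (points) with the group mean (bar), groups along the x axis. Fgf2 is higher in the E2 arrays of both layers, Fgf7 and Spry4 are lower with E2 in the stromal layer, and Fgf9 is higher in the epithelial layer than in the stromal layer.

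The first question was how E2 changed the ligand genes in each layer. Fgf2, a ligand for several FGF receptors that is exported without a signal peptide, rose in both layers. It measured 11.33, 11.28 and 11.06 in epithelial E2 arrays and 10.08, 9.95 and 10.12 in epithelial vehicle arrays, and the groups did not overlap. The difference was 1.17 ± 0.12 (2.25-fold, adjusted p = 0.000533 by limma). Stromal Fgf2 measured 10.53, 10.55 and 10.61 with E2 and 9.67, 9.99 and 9.54 with vehicle, again without overlap (0.83 ± 0.12, 1.78-fold, adjusted p = 0.00236 by limma). The rise was 0.34 ± 0.17 larger in the epithelial layer, with a 95% interval from -0.03 to 0.71 that includes 0 (adjusted p = 0.532 by limma).

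Fgf7, the keratinocyte growth factor, fell with E2 in the stromal layer. It measured 8.94, 8.99 and 8.81 in stromal E2 arrays and 11.06, 10.76 and 10.42 in stromal vehicle arrays, so that every E2 array was below every vehicle array. The difference was -1.83 ± 0.19 (3.55-fold, adjusted p = 0.000309 by limma). In the epithelial layer it measured 10.88, 11.01 and 10.28 with E2 and 10.23, 10.11 and 10.23 with vehicle, where the E2 arrays were above the vehicle arrays, replicate 3 only just. That difference, 0.54 ± 0.19, did not pass (adjusted p = 0.173 by limma). Of the 23 alternatives, it passed without epithelial E2 replicate 3 (0.76, adjusted p = 0.0194) and with array weights (0.76, adjusted p = 0.00716), and the adjusted p reached 0.471. The E2 effects of the layers differed by 2.36 ± 0.27 (adjusted p = 0.00378 by limma), between 2.21 and 2.59 when any 1 array was left out. Fgf7 alone of the 10 genes passed this test of the difference, which called 0.91% of all probe sets (0.641% with the higher difference in the epithelial layer). Leaving out epithelial E2 replicate 3 gave 3 calls (Fgf12 and Spry4 added), epithelial vehicle replicate 3 gave 3 (Spry1 and Spry4 added) and epithelial vehicle replicate 2 gave 2 (Spry4 added).

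Fgf10, the main stromal ligand of epithelial budding, had the largest spread of the 5 FGF genes followed here in epithelial vehicle arrays. It measured 10.10, 10.27 and 10.28 in epithelial E2 arrays and 9.05, 8.40 and 10.45 in epithelial vehicle arrays, and vehicle replicate 3 lay above all E2 arrays. The stromal marker mean was ordered in the same way in those vehicle arrays (10.16, 9.86 and 10.80), and its part in the Fgf10 values was not tested. The difference was 0.92 ± 0.40 (adjusted p = 0.286 by limma) and did not pass. Without vehicle replicate 3 it was 1.49 and passed (adjusted p = 0.00511 by limma), and without vehicle replicate 2 it was 0.46 (adjusted p = 0.639), the ends of the range over fits without 1 array.

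In stroma Fgf10 measured 9.63, 9.71 and 9.23 with E2 and 8.50, 7.78 and 8.37 with vehicle. The groups did not overlap, and the difference of 1.30 ± 0.40 (2.47-fold) did not pass in the fit of all 12 arrays (adjusted p = 0.129 by limma). It passed when the 6 stromal arrays were fitted alone (adjusted p = 0.00631 by limma). Over the settings that kept all arrays, averaged a pair or fitted the stromal arrays alone, the adjusted p ran from 0.000547 to 0.207. Over those that left out 1 array it ran from 0.00681 to 0.397, passing without epithelial vehicle replicate 2 (0.0326) or 3 (0.00681). The full fit uses 1 spread for both layers, while the median SD over probe sets was 0.158 in epithelial E2 arrays, 0.185 in epithelial vehicle arrays, 0.0804 in stromal E2 arrays and 0.0946 in stromal vehicle arrays.

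Fgf9 rose with E2 in the epithelial layer, where it measured 9.99, 9.66 and 9.74 with E2 and 8.31, 8.78 and 9.26 with vehicle. The groups did not overlap, and the difference was 1.01 ± 0.22 (2.02-fold, adjusted p = 0.0335 by limma). The call passed in 4 of the 12 fits that left out 1 array, with adjusted p between 0.00441 and 0.143, and it was lost without epithelial E2 replicate 1 or 2, epithelial vehicle replicate 1 (0.78, adjusted p = 0.0871) or 2, any stromal E2 array or stromal vehicle replicate 1. It was also lost when all probe sets were tested (adjusted p = 0.0574), with epithelial E2 replicates 1 and 2 averaged (0.116) and in a fit of the epithelial arrays alone (0.205). Stromal Fgf9 measured 7.44, 7.16 and 7.49 with E2 and 7.10, 6.75 and 7.36 with vehicle, which overlapped (0.29 ± 0.22, adjusted p = 0.759 by limma).

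Fgf12 encodes an intracellular FGF homologue that binds sodium channels and does not act through FGF receptors. Its signal was low, with group means at the 20.2 to 35.9 percentile of all probe sets with a symbol, and whether it lay above background was not tested. It measured 6.66, 6.58 and 6.66 in stromal E2 arrays and 5.89, 6.12 and 5.95 in stromal vehicle arrays, and it rose without overlap (0.64 ± 0.08, adjusted p = 0.00154 by limma). In the epithelial layer the values were 5.86, 5.89 and 5.98 with E2 and 5.73, 5.81 and 5.87 with vehicle, a difference of 0.11 ± 0.08 (adjusted p = 0.640 by limma).

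Neither receptor gene passed the test for E2 in either layer. Fgfr1, the receptor gene most often found in mesenchyme, measured 11.69, 11.65 and 11.71 in epithelial E2 arrays and 11.52, 11.02 and 11.83 in epithelial vehicle arrays (0.23 ± 0.17, adjusted p = 0.612 by limma). Its stromal values were 11.64, 11.66 and 11.33 with E2 and 11.93, 11.80 and 11.88 with vehicle. These groups did not overlap, yet the difference of -0.32 ± 0.17 did not pass (adjusted p = 0.518 by limma).

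Fgfr2, whose splice forms serve as receptors of Fgf7 and Fgf10 on epithelia and of other FGFs on mesenchyme, measured 7.61, 7.63 and 8.08 in epithelial E2 arrays and 7.79, 7.56 and 8.57 in epithelial vehicle arrays. The groups overlapped (-0.20 ± 0.23, 95% interval from -0.70 to 0.30, adjusted p = 0.775 by limma). Stromal Fgfr2 was lower in every E2 array, with 7.83, 7.93 and 8.05 against 8.34, 8.37 and 8.69 with vehicle. This difference of -0.53 ± 0.23 did not pass in the 12-array fit (adjusted p = 0.352 by limma) and did so on the 6 stromal arrays alone (adjusted p = 0.0214 by limma). The adjusted p ranged from 0.00582 to 0.585 over the settings that kept all arrays, averaged a pair or fitted the stromal arrays alone.

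The 3 Sprouty genes did not share 1 direction of difference. Spry1 fell with E2 in the stromal layer, where it measured 8.17, 8.02 and 8.29 with E2 and 9.90, 9.58 and 9.74 with vehicle, with no overlap (-1.58 ± 0.16, 2.99-fold, adjusted p = 0.000306 by limma). In the epithelial layer it measured 8.42, 8.36 and 8.66 with E2 and 9.12, 8.83 and 9.52 with vehicle, also without overlap. That difference of -0.68 ± 0.16 lay just outside the threshold (adjusted p = 0.0505 by limma), and it passed without epithelial E2 replicate 3 (-0.76, adjusted p = 0.0315) or epithelial vehicle replicate 2 (-0.84, adjusted p = 0.0130), in a range up to 0.189 over the fits without 1 array. It also passed with the filter on low values (adjusted p = 0.0428), median centring (0.0466) and array weights (0.000684), and on the epithelial arrays alone its adjusted p was 0.295. The effects of the layers differed by 0.91 ± 0.23, which did not pass (adjusted p = 0.111 by limma).

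Spry4 fell in the stromal layer, to 9.65, 9.54 and 9.25 with E2 against 10.57, 10.88 and 10.69 with vehicle (-1.23 ± 0.23, 2.35-fold, adjusted p = 0.0121 by limma). The groups did not overlap, and the call was lost without stromal E2 replicate 3 (-1.12, adjusted p = 0.0587 by limma) and kept without any other 1 array (adjusted p from 0.00112 to 0.0494). In the epithelial layer Spry4 measured 9.42, 9.49 and 8.92 with E2 and 9.38, 8.46 and 9.26 with vehicle, which overlapped (0.24 ± 0.23, adjusted p = 0.717 by limma). The difference of the effects, 1.47 ± 0.33, did not pass (adjusted p = 0.0651 by limma).

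Spry2 measured higher with E2 in both layers, opposite in sign to Spry1. It was 10.13, 10.13 and 9.68 in epithelial E2 arrays and 8.87, 8.26 and 9.45 in epithelial vehicle arrays, and 9.69, 9.88 and 9.36 in stromal E2 arrays and 8.51, 8.91 and 8.36 in stromal vehicle arrays. The groups did not overlap in either layer. The differences of 1.12 ± 0.27 in the epithelial layer (adjusted p = 0.0509 by limma) and 1.05 ± 0.27 in the stromal layer (adjusted p = 0.0606 by limma) stayed just outside the threshold. The epithelial one passed without epithelial E2 replicate 3 (1.27, adjusted p = 0.0327) or epithelial vehicle replicate 3 (1.41, adjusted p = 0.00588), in a range up to 0.185, and the stromal one without epithelial vehicle replicate 2 (adjusted p = 0.0125) or 3 (adjusted p = 0.0190), in a range up to 0.246. On the 6 stromal arrays alone the stromal one passed (adjusted p = 0.00805 by limma). Each of them passed in 4 of 11 other settings, with adjusted p from 0.00162 to 0.270 for the epithelial and from 3.67e-05 to 0.107 for the stromal one. Between layers they differed by 0.07 ± 0.38 (95% interval from -0.76 to 0.90).

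**Figure D3:**
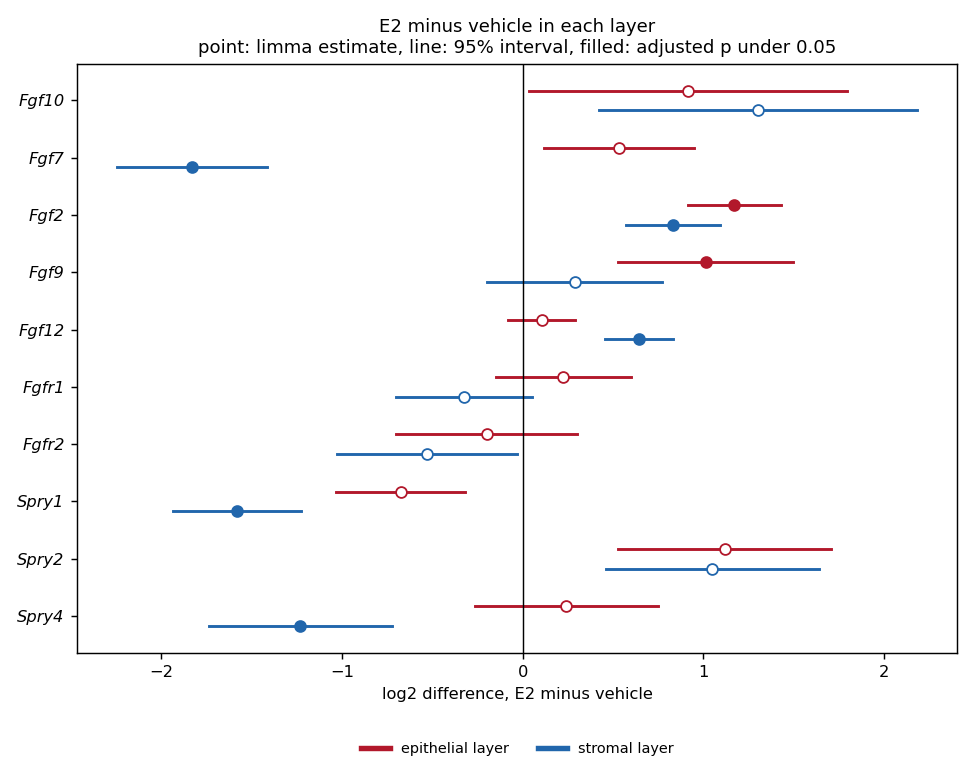
Log2 difference of E2 minus vehicle (x axis) for the 10 genes in the epithelial layer (red) and the stromal layer (blue), with the limma estimate as a point, its 95% interval as a line and filled points where the adjusted p was under 0.05. Filled points stand to the right for Fgf2 in both layers, Fgf9 in the epithelial layer and Fgf12 in the stromal layer, and to the left for Fgf7, Spry1 and Spry4 in the stromal layer.

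In all, 2 of the 10 genes passed for E2 in the epithelial layer, both higher, where 2.9% of all probe sets passed (1.77% higher and 1.12% lower). In the stromal layer 5 passed, 2 higher and 3 lower, where 3.5% of all probe sets did (1.52% higher and 1.98% lower). The members were chosen with earlier results of these data known. Their counts beside these shares, here and between the layers, are therefore no test of the set. The epithelial count was 1 without epithelial E2 replicate 1 or 2, epithelial vehicle replicate 1, any stromal E2 array or stromal vehicle replicate 1, and it was 5 without epithelial E2 replicate 3 and 4 without epithelial vehicle replicate 3. The E2 and vehicle arrays did not overlap for 5 of the 10 genes in the epithelial layer (15% of all probe sets) and for 9 in the stromal layer (30.5% of all probe sets). The median difference of the 10 genes was 0.39 in the epithelial layer and -0.02 in the stromal layer, and that of all probe sets 0.03 in each. The epithelial and stromal comparisons contrast different arrays, but their tests share 1 spread estimated from all 12 arrays.

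Promoter sequences are shown, from RefSeq windows, for a pair of ligand genes and a pair of neighbouring genes whose E2 differences pointed opposite ways in the stromal layer. The windows run from 250 bases before to 50 bases after the start that the RefSeq table (GRCm38.p6) uses, on the strand of the gene, and for Fgf2 and Fgf9 that start is not the outermost one annotated. They were available for 8 of the 10 genes. Capitals mark matches to any of 5 motifs searched on both strands, namely the palindromic full estrogen response element, its half-site GGTCA, the AP-1 site TGANTCA, the GC box GGGCGG and the ETS site CCGGAAG. The full element is the half-site and its reverse complement with 3 free bases between them, so each full element would also count as half-sites. Fgf10 (chr13:118714449-118714748 (+ strand)) and Fgf7 (chr2:126034408-126034707 (+ strand)) are the ligands with stromal differences of 1.30 and -1.83.
Fgf10: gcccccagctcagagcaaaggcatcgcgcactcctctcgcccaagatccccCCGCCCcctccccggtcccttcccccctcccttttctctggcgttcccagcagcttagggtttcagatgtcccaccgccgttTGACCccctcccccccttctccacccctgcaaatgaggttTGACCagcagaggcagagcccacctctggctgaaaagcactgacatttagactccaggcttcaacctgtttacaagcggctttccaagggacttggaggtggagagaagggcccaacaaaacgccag
Fgf7: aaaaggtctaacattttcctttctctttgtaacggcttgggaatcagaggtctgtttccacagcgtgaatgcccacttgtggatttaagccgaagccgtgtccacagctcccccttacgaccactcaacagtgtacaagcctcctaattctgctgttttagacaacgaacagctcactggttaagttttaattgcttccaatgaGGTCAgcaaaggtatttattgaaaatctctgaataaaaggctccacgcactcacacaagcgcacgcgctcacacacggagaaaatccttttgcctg
Fgf2 (chr3:37348403-37348702 (+ strand)), which rose in the stromal layer, and Spry1 (chr3:37639697-37639996 (+ strand)), which fell there, lie near each other on chromosome 3 with 5 annotated genes between them, of which Nudt6 and Spata5 code for proteins.
Fgf2: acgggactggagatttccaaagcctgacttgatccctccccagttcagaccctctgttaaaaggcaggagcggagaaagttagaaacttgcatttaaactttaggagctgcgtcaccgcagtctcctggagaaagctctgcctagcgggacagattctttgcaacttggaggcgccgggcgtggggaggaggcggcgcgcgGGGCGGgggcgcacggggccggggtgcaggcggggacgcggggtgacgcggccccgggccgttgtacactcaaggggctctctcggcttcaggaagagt
Spry1: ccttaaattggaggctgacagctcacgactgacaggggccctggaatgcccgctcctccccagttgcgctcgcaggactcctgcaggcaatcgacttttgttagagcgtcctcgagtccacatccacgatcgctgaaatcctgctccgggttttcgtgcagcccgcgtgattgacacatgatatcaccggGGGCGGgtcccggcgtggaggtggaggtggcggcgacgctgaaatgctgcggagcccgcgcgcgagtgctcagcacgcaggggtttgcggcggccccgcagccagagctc

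Half-sites of the estrogen response element were found in the windows of 5 of the 8 genes, against 40.5% of 32851 windows in the table. Fgf12 had 4 windows and the other genes 1 each. Fgf10 had 2 (bases 134 to 138 and 174 to 178 of its window) and Fgf7 had 1 (bases 205 to 209). The full element was in 0 of the 8 windowed genes and in 0.07% of all windows. GC boxes were found in 4 of the 8 genes, against 35.7% of windows, and Fgf2 (bases 202 to 207) and Spry1 (bases 191 to 196) each had 1. The AP-1 site was in 1 of the 8, namely Fgf12, against 7.81% of windows, and the ETS site in 0, against 8.86%. These matches describe the letters in the windows and say nothing about binding.

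The next question was how ligands and receptors were divided between the layers. Under E2, Fgf9, Fgf7 and Fgf2 were higher in the epithelial than in the stromal layer and Fgf12 was lower, 4 of 10 genes in a comparison that called 13.6% of all probe sets (4.43% higher and 9.18% lower). Fgf9 stood highest over the stromal layer, at 9.80 ± 0.17 (SD, n = 3) in epithelial E2 arrays and 7.36 ± 0.17 (SD, n = 3) in stromal E2 arrays (2.43 ± 0.22, 5.41-fold, adjusted p = 4.15e-05 by limma). The stromal Fgf9 mean was at the 49.6 percentile of all probe sets with a symbol under E2 and at the 44.6 percentile under vehicle. Whether stromal Fgf9 lay above background was not tested. Fgf7, at 10.72 ± 0.39 (SD, n = 3) and 8.92 ± 0.10 (SD, n = 3), was 1.81 ± 0.19 higher in the epithelial layer (adjusted p = 0.000103 by limma), and Fgf2 was 0.66 ± 0.12 higher (adjusted p = 0.00324 by limma). Fgf12 was lower in the epithelial layer (-0.72 ± 0.08, adjusted p = 0.000226 by limma). These 4 calls held in all 12 fits that left out 1 array and in all 12 other settings. For Fgf12 the filter on low values adds no support, because the gene passed that filter only through its stromal E2 arrays.

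Fgf10, with 10.21 ± 0.10 (SD, n = 3) in epithelial E2 arrays and 9.52 ± 0.25 (SD, n = 3) in stromal E2 arrays, was not lower in the layer of the epithelial label. Its arrays did not overlap between the layers, and the difference of 0.69 ± 0.40 did not pass (adjusted p = 0.293 by limma). The receptors gave intervals around 0, with Fgfr1 at 0.14 ± 0.17 (95% interval from -0.24 to 0.51) and Fgfr2 at -0.16 ± 0.23 (from -0.66 to 0.34). The Sproutys did not pass under E2, with Spry1 at 0.32 ± 0.16, Spry2 at 0.34 ± 0.27 and Spry4 at -0.21 ± 0.23.

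Under vehicle, 3 of the 10 genes differed between the layers, where 21.4% of all probe sets did (7.27% higher and 14.1% lower). Fgf9 was higher in the epithelial layer, at 8.78 ± 0.47 (SD, n = 3) against 7.07 ± 0.30 (SD, n = 3) in stromal vehicle arrays (1.71 ± 0.22, 3.27-fold, adjusted p = 0.000323 by limma). Spry4, at 9.03 ± 0.50 (SD, n = 3) against 10.71 ± 0.16 (SD, n = 3) in stromal vehicle arrays, was lower in the epithelial layer (-1.68 ± 0.23, 3.21-fold, adjusted p = 0.000479 by limma), and Spry1 was lower as well (-0.58 ± 0.16, adjusted p = 0.0246 by limma). The Spry1 call passed in 8 of the 12 fits that left out 1 array, with adjusted p between 0.00329 and 0.0942, and was lost without epithelial vehicle replicate 1 (adjusted p = 0.0702) or 2 (-0.42, adjusted p = 0.0509) and without stromal vehicle replicate 1 (adjusted p = 0.0942) or 3 (adjusted p = 0.0668). It was also lost under quantile normalization (-0.42, adjusted p = 0.166) and under centring on the 75th percentile (-0.42, adjusted p = 0.150).

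The other genes did not pass under vehicle. Fgf10 measured 1.08 ± 0.40 higher in the epithelial layer (adjusted p = 0.0809 by limma), from 0.50 without epithelial vehicle replicate 3 (adjusted p = 0.193) to 1.53 without replicate 2 of that group, where it passed (adjusted p = 0.00851). Fgf7 measured 0.56 lower in the epithelial layer (-0.56 ± 0.19, adjusted p = 0.0582 by limma) and passed without epithelial E2 replicate 3 (adjusted p = 0.0143) or stromal vehicle replicate 3 (-0.72, adjusted p = 0.0304). Fgf2 measured 0.32 ± 0.12 higher (adjusted p = 0.0787 by limma) and passed without epithelial vehicle replicate 2 (0.37, adjusted p = 0.0499) or stromal vehicle replicate 2 (0.45, adjusted p = 0.0192). Fgf2 passed as well under quantile normalization (0.47, adjusted p = 0.0116), centring on the 75th percentile (0.49, adjusted p = 0.0142) and array weights (0.41, adjusted p = 0.00754). The receptor Fgfr1 was at -0.41 ± 0.17 (adjusted p = 0.113 by limma) and Fgfr2 at -0.49 ± 0.23 (adjusted p = 0.155 by limma), so neither measured higher in the layer of the epithelial label. Without epithelial vehicle replicate 3 both receptors passed as lower in that layer (Fgfr1 -0.60, adjusted p = 0.0159, and Fgfr2 -0.79, adjusted p = 0.00608, by limma), which made the count 5. In the epithelial vehicle arrays both receptor genes were highest in replicate 3 and lowest in replicate 2, in the order of the stromal marker means given above, whose part in these differences was not tested. Deviations from the group mean in vehicle arrays with the same replicate number correlated weakly between the layers (0.17, 0.14 and 0.13). In the other group pairs these correlations ran from -0.42 to 0.27. With the replicate number as a block 5 genes passed in place of 3, Fgf7 (adjusted p = 0.0299 by limma) and Fgfr2 (adjusted p = 0.0372 by limma) being added. With treatment and replicate number together as a random block 4 passed, and Fgf7 was added (adjusted p = 0.0479 by limma). The labels do not say whether arrays of the 2 layers with the same number came from 1 culture.

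**Figure D4:**
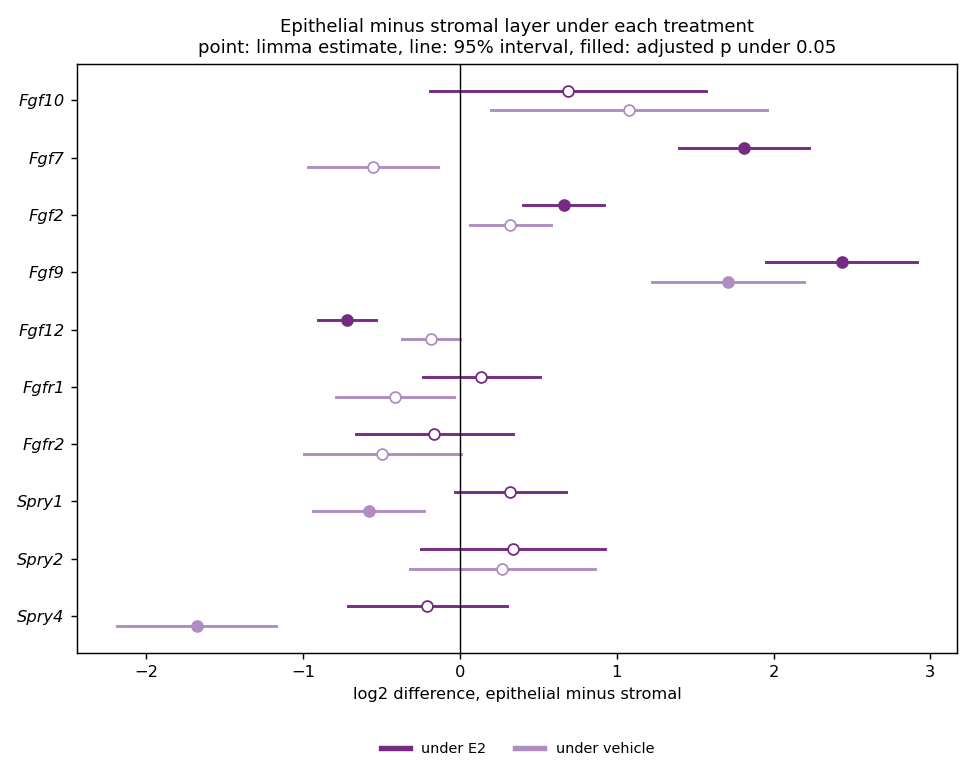
Log2 difference of the epithelial minus the stromal layer (x axis) for the 10 genes under E2 (dark) and under vehicle (light), with the limma estimate as a point, its 95% interval as a line and filled points where the adjusted p was under 0.05. Fgf9 lies at 2.43 and 1.71, Fgf7 at 1.81 under E2 and -0.56 under vehicle, and Spry4 at -0.21 under E2 and -1.68 under vehicle.

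The median layer difference of the 10 genes was 0.33 under E2 and -0.30 under vehicle, beside 0.02 for all probe sets under each. Layer arrays did not overlap for 6 of the 10 genes under E2 (38.9% of all probe sets) and for 5 under vehicle (36% of all probe sets). By the order of the group means, Fgf10 was highest in epithelial E2 arrays, followed by stromal E2, epithelial vehicle and stromal vehicle arrays, and from stromal E2 arrays on, each group overlapped the next. Fgf7 was alike in stromal vehicle (10.74) and epithelial E2 arrays (10.72), which overlapped, with epithelial vehicle (10.19) and stromal E2 arrays (8.92) below them without overlap. For Spry1 the 4 groups ran from stromal vehicle (9.74) over epithelial vehicle (9.16) and epithelial E2 (8.48) to stromal E2 arrays (8.16), and no neighbours overlapped. For Spry2, overlap joined each group to the next.

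A wider set of FGF pathway genes, 70 measured in all, was read in the same fits. These lists too were chosen with earlier results of these data known, so their counts are no test of the set. Of 17 other FGF family genes, not all of them receptor ligands, 0 passed for E2 in either layer by limma (1 in each layer at an unadjusted p under 0.05). The other receptor and co-receptor genes likewise had 0 of 6 passing in either layer by limma (1 and 0 at an unadjusted p under 0.05). These comparisons called 2.9% of all probe sets in the epithelial layer and 3.5% in the stromal layer. Counts of 0 in such short lists therefore do not set these genes apart from others. Fgfr3 measured between 6.99 and 7.34 and Fgfr4 between 7.05 and 7.49 over all 12 arrays.

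Genes for FGF-binding proteins and for heparan sulfate, the sugar chain that FGFs need for receptor binding, were read as 1 list. It had 0 of 16 passing in the epithelial layer by limma (5 at an unadjusted p under 0.05) and 2 falling in the stromal layer. Of all probe sets 2.9% passed in the epithelial layer, and 1.98% passed as lower in the stromal layer. Ext1, an enzyme that builds the chain, measured 10.47, 10.50 and 10.32 in stromal E2 arrays and 11.63, 11.41 and 11.71 in stromal vehicle arrays (-1.16 ± 0.12, 2.23-fold, adjusted p = 0.000311 by limma). Hs6st1, which adds sulfate to it, fell by 0.88 ± 0.19 (adjusted p = 0.0238 by limma), and this call was lost without any 1 of the 6 stromal arrays (adjusted p up to 0.0984). The Ext1 fall passed in all 12 fits without 1 array. The E2 effect on Ext1 differed between the layers (0.93 ± 0.17, adjusted p = 0.0296 by limma), a call kept in 4 of the 12 fits without 1 array (adjusted p from 0.00528 to 0.0945) and in 8 of 11 other settings. Among 12 signal adaptor and kinase genes, Map2k1, which encodes the ERK-activating kinase MEK1, rose in the epithelial layer, with 10.90, 10.90 and 10.56 in E2 arrays and 10.09, 9.65 and 9.92 in vehicle arrays (0.90 ± 0.13, adjusted p = 0.00454 by limma). None of the 12 passed in the stromal layer by limma (1 at an unadjusted p under 0.05), where 3.5% of all probe sets passed.

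Of 19 other feedback and target genes, 5 fell and 1 rose with E2 in the stromal layer, where Spry1 and Spry4 also fell and where 1.98% of all probe sets were lower and 1.52% higher. Their median difference was -0.28 in the stromal layer, where that of all probe sets was 0.03. The ERK phosphatase gene Dusp4 measured 7.64, 7.72 and 7.58 in stromal E2 arrays and 8.90, 8.90 and 9.18 in stromal vehicle arrays (-1.35 ± 0.14, 2.55-fold, adjusted p = 0.000300 by limma). Dusp5, another ERK phosphatase gene, fell by 1.00 ± 0.16 (adjusted p = 0.00638 by limma), and Il17rd, whose product Sef inhibits FGF signalling, fell by 0.52 ± 0.09 (adjusted p = 0.00992 by limma). The ETS factor gene Etv4, an FGF target in many tissues, measured 8.29, 8.31 and 7.88 with E2 and 9.25, 9.26 and 9.24 with vehicle (-1.09 ± 0.23, adjusted p = 0.0240 by limma), and the Sprouty-related inhibitor gene Spred1 fell by 0.84 ± 0.19 (adjusted p = 0.0359 by limma). The calls of Dusp4 and Dusp5 passed in all 12 fits without 1 array. Il17rd was lost without stromal E2 replicate 1 or stromal vehicle replicate 3 (adjusted p up to 0.0550), and Etv4 without any 1 of the 6 stromal arrays (up to 0.103). Spred1 passed in 3 of the 12, those without epithelial E2 replicate 3 or epithelial vehicle replicate 2 or 3 (adjusted p from 0.00147 to 0.148).

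Dusp6 measured -0.93 ± 0.23 and Etv5 -0.34 ± 0.12 in the stromal layer, each with all E2 arrays below all vehicle arrays, and did not pass (adjusted p = 0.0557 and 0.189 by limma), although Dusp6 did in 2 of the 12 fits without 1 array and in 3 of 11 other settings (adjusted p from 1.70e-05 to 0.125 over these 11). The immediate early gene Fos moved the other way, with 9.88, 9.93 and 10.01 in stromal E2 arrays and 8.32, 8.68 and 8.74 in stromal vehicle arrays (1.36 ± 0.13, 2.56-fold, adjusted p = 0.000251 by limma).

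In the epithelial layer 2 of the 19 rose and 3 fell, where 1.77% of all probe sets were higher and 1.12% lower, and the median difference was 0.07. The fallers were Il17rd (-0.60 ± 0.09, adjusted p = 0.00638), the G1 cyclin gene Ccnd1 (-1.66 ± 0.33, adjusted p = 0.0214) and Dusp4 (-0.59 ± 0.14, adjusted p = 0.0433), and the risers Spred2 (0.49 ± 0.10, adjusted p = 0.0232) and Etv1 (0.90 ± 0.20, adjusted p = 0.0359), all by limma. Of these calls, that of Il17rd passed in all 12 fits without 1 array, those of Ccnd1 and Spred2 in 9 (lost without epithelial E2 replicate 1 or 2 or epithelial vehicle replicate 1), that of Etv1 in 5 (lost without epithelial E2 replicate 1 or 2, epithelial vehicle replicate 2, any stromal E2 array or stromal vehicle replicate 1) and that of Dusp4 in 1, the fit without epithelial vehicle replicate 3. None of these 5 passed in a fit of the 6 epithelial arrays alone. Il17rd thus fell in both layers, with 8.04, 8.09 and 8.23 in epithelial E2 arrays and 8.85, 8.66 and 8.65 in epithelial vehicle arrays. The E2 effects of the layers differed for Spred2 (0.69 ± 0.14, adjusted p = 0.0473) and for Fos (-0.93 ± 0.19, adjusted p = 0.0499), both close to the threshold by limma and each kept in 2 of the 12 fits without 1 array. Leaving out 1 array moved the 6 pathway calls of the epithelial layer to between 2 and 10, the 8 of the stromal layer to between 4 and 13 and the 3 of the difference to between 0 and 8. The epithelial count was 2 without epithelial E2 replicate 1 or 2, 3 without epithelial vehicle replicate 1 and 10 without epithelial vehicle replicate 3. The stromal count was 4 without stromal E2 replicate 1 or stromal vehicle replicate 3, 5 without any other stromal array and 13 without epithelial vehicle replicate 2. For the difference, 0 passed without epithelial E2 replicate 1 or 2, any stromal E2 array or stromal vehicle replicate 1 or 3, 1 without epithelial vehicle replicate 1 or stromal vehicle replicate 2, and 8 without replicate 3 of either epithelial group.

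**Figure D5:**
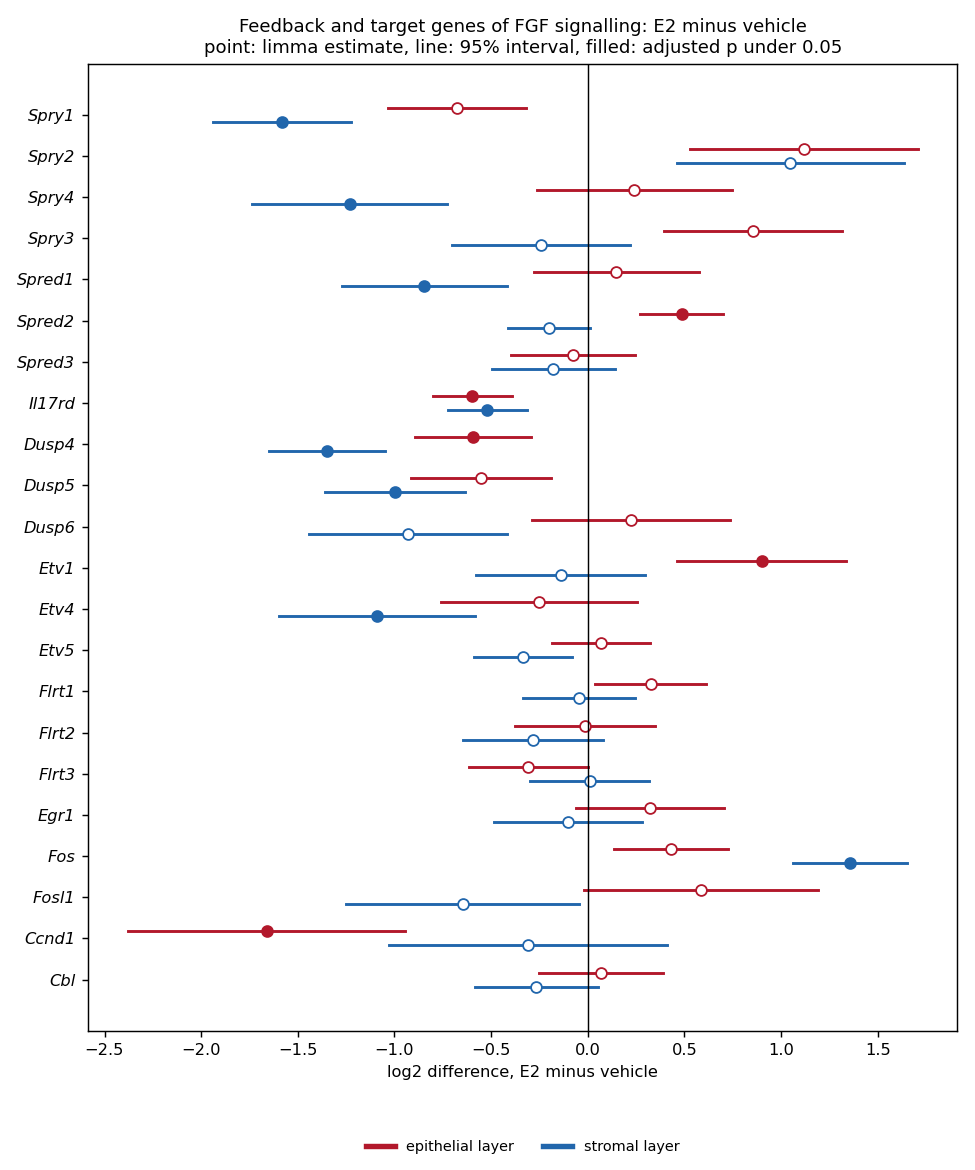
Log2 difference of E2 minus vehicle (x axis) for 3 Sproutys and 19 other feedback and target genes of FGF signalling in the epithelial layer (red) and the stromal layer (blue), with the limma estimate as a point, its 95% interval as a line and filled points where the adjusted p was under 0.05. In the stromal layer Spry1, Spry4, Spred1, Il17rd, Dusp4, Dusp5 and Etv4 lie left of 0 with filled points, and Fos lies at 1.36.

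Between the layers, pathway genes differed at 19 of 70 under E2 (15 higher and 4 lower in the epithelial layer) and at 22 of 70 under vehicle (14 and 8), with 13.6% and 21.4% of all probe sets called. The count under E2 was 12, 11 and 11 without stromal E2 replicate 1, 2 or 3, and that under vehicle 14 without stromal vehicle replicate 1 or 2. The glypican gene Gpc3, a cell surface heparan sulfate carrier, was between 8.77 and 10.96 in epithelial arrays and between 6.49 and 6.94 in stromal arrays, a difference of 3.92 ± 0.40 under E2 (adjusted p = 9.35e-05 by limma). Flrt2, a membrane protein gene of the family that binds FGF receptors, differed by 3.08 ± 0.17 under E2. The sulfotransferase gene Hs6st2 was higher in the epithelial layer (1.83 ± 0.29 under E2, adjusted p = 0.00163 by limma) and the sulfatase gene Sulf1 lower (-0.82 ± 0.17, adjusted p = 0.00876 by limma). In stromal E2 arrays the means of Gpc3 and Hs6st2 were at the 34.1 and 29.6 percentile of all probe sets with a symbol, and whether they lay above background was not tested. Among other ligands, Fgf18 was 1.83 ± 0.51 higher in the epithelial layer under vehicle (adjusted p = 0.0246 by limma), with 8.99, 10.88 and 8.42 in epithelial vehicle arrays against 7.78, 7.32 and 7.70 in stromal vehicle arrays. Without epithelial vehicle replicate 2, its highest array, the Fgf18 difference was 1.10 (adjusted p = 0.0220), and the call was lost without stromal vehicle replicate 1, 2 or 3 (0.0530, 0.0872 and 0.0601) and on the vehicle arrays alone (0.0808). The epithelial marker mean was ordered like Fgf18 in the epithelial vehicle arrays (10.185, 10.747 and 9.22). Its part in the Fgf18 difference was not tested. Dusp4 and Dusp6 were higher in the epithelial layer under E2 by 1.52 ± 0.14 and 1.18 ± 0.23 (adjusted p = 4.1e-05 and 0.00581 by limma).

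Genes whose values over the 12 arrays ran closest to those of 4 of the members were found among 19937 others, by the root mean square difference of values centred on each gene. For Fgf10, which spanned 2.67 log2 units, these were C1qtnf7 (0.342), Hspb2 (0.409), Lgi2 (0.432) and Agtr1a (0.434). For Fgf2, spanning 1.79, they were Plscr4 (0.174), Irx1 (0.194), Ammecr1 (0.196) and Nova1 (0.197). For Fgfr2, spanning 1.13, they were Icam1 (0.124), Tnfrsf1b (0.140), Fbln1 (0.170) and Gfra2 (0.170). For Spry1, spanning 1.89, they were Adamts14 (0.248), Slc6a17 (0.250), Fzd1 (0.259) and Casp4 (0.268). The points share layer and treatment, so likeness over them describes these arrays.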

How the data were processed

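The series holds 12 Affymetrix Mouse Gene 1.0 ST arrays. The authors deposited log2 signals per probe set made with RMA, per the submitters' processing notes, whose version and settings are not given in the sources used here. The table had 35556 probe sets with values from 3.2 to 14.0 and 0 columns without a sample. Signal over background was not given. The number of arrays limits the precision.

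Symbols came from the platform annotation: 23410 probe sets had at least 1, 21789 exactly 1, 1621 several and 12146 none. Where several single-symbol probe sets shared a gene, the brightest stood for it. The deposited values were fitted with limma 3.58.1 in R 4.3.3 (lmFit, eBayes) over 4 groups without covariates, with two-sided tests. Residual degrees of freedom were 8 and the prior ones 3.27. Benjamini-Hochberg adjustment covered the 23410 probe sets, separately in each of 5 comparisons. The code of the fit was run on simulated data in which each probe set had the same spread in all groups. It therefore does not cover the unequal spreads of the layers.

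The members, gene lists and marker lists were chosen with earlier results of these data known. Named were all members, up to 3 genes of each list per direction and comparison (a selection is given, with others chosen after their values were seen, such as Dusp6 and Etv5), Pgr, 4 markers and 4 nearest genes of 4 members. Replicate numbers came from the titles. The residuals of epithelial and stromal vehicle arrays with the same number correlated at 0.17, 0.14 and 0.13, each highest with its own number, so that comparison is also given with blocks. In the other group pairs the correlations of same-numbered arrays ran from -0.42 (replicate 1 of epithelial E2 and epithelial vehicle) to 0.27. The alternatives were a filter (log2 of 6 in at least 3 arrays), all probe sets, 3 scalings, a robust prior with a variance trend, array weights, averaged probe sets, blocks, an averaged pair of arrays, the compared arrays alone, and leaving out each array.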

Additional observations from a re-analysis of the deposited data

Results flagged for a closer look

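Fgf7 differed between the layers in its response to E2. Its log2 difference of E2 minus vehicle was 0.54 ± 0.19 in the epithelial layer and -1.83 ± 0.19 in the stromal layer, and the difference between these effects was 2.36 ± 0.27 (adjusted p = 0.00378 by limma, n = 3 arrays per group). Every stromal E2 array lay below every stromal vehicle array and every epithelial E2 array above every epithelial vehicle array. With groups of 3 arrays, single arrays were not tested for standing apart.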

How the results depend on the processing

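Counts of FGF genes that passed moved with several choices; the cause was not tested. Array weights gave 5, 9, 8, 7 and 5 of the 10 genes for E2 in epithelium, E2 in stroma, the layers under E2, the layers under vehicle and the difference of the E2 effects, in place of 2, 5, 4, 3 and 1, and 22, 21, 40 and 24 pathway genes for the first, the second, the third and the last of these, in place of 6, 8, 19 and 3. Fitting the compared arrays alone gave 1 gene and 0 pathway genes for E2 in epithelium and 8 and 16 for E2 in stroma. Averaging E2 epithelial replicates 1 and 2 gave 1 gene and 2 pathway genes for E2 in epithelium and 0 pathway genes for the difference. A filter on low values gave 4 genes for E2 in epithelium, and testing all probe sets gave 1, with 0 pathway genes for the difference. Quantile normalization gave 11 pathway genes for E2 in epithelium, and centring on the 75th percentile 1 for the difference. The replicate number as a block gave 5 genes between the layers under vehicle and 2 for the difference, where Spry1 was added (adjusted p = 0.0430), and Spry1 passed with it for E2 in epithelium too (0.0197). In the other comparisons its counts stayed within 1.5 times. Without 1 array the counts of the 10 genes ran from 1 to 5, 4 to 7, 4 to 4, 2 to 5 and 1 to 3, and those of pathway genes from 2 to 10, 4 to 13, 11 to 23, 14 to 26 and 0 to 8.

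The calls of Fgf2, Fgf7, Spry1 and Fgf12 for E2 in stroma, of Fgf2 for E2 in epithelium and of Fgf7 for the difference held in every setting run. Fgf12 passed the filter on low values only through its stromal E2 arrays, the group where it was high. That setting therefore adds no support to its calls. Of the values of the 10 genes under alternatives, 11 changed sign, none of them a call. The Spry2 difference of the E2 effects (0.07) was -0.16 with array weights and -0.0060 with the averaged pair, and ran from -0.23 to 0.36 without 1 array. Without 1 array, 4 more signs turned, within ranges from -0.045 to 0.42 for Spry4 and -0.41 to 0.10 for Fgfr2 with E2 in epithelium, -0.026 to 0.57 for Spry2 between the layers under vehicle and -0.84 to 0.19 for Fgf10 in the difference of the E2 effects. Whether low signals such as Fgf12 lay above background was not tested.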
